A study of Mus musculus with 119 samples.

Results

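Macrophages that carry an Nfkb1[SS/AA] mutation were compared with WT macrophages 0.5 h after LPS. The comparison rests on 12 RNA-seq libraries, which are 10.1% of those of the study, namely 6 libraries of Nfkb1[SS/AA] cells (replicates 1 to 6) and 6 of WT cells (replicates 4 to 9), picked by the genotype and the LPS time in the sample labels. All were bone marrow-derived macrophages (BMDMs) of the C57BL/6(NIMR) strain, grown in L-cell conditioned medium, seeded overnight in low serum and given LPS at 100 ng/ml without any inhibitor. The 6 unstimulated libraries of each genotype served to separate the LPS response from differences already present, and 6 libraries of Map3k8[D270A] cells at 0.5 h served as a second mutant of the same pathway. These are referred to as p105 mutant, WT and TPL-2 kinase-dead cells. The mutants were mouse strains backcrossed to C57BL/6, so every cell of the body carried the change. The labels place WT and TPL-2 kinase-dead libraries in 1 experiment and the p105 mutant libraries in another, so that genotype and experiment cannot be told apart in any difference from WT. No WT library of the p105 experiment was analysed here. The labels number the replicates without saying which came from separate mice, so p-values measure only the spread between libraries. In the main fit this spread was pooled per gene over all groups of the study, not taken from the compared libraries alone. For *Fosb*, the standard error (SE) of the difference from WT was 0.12 both at 0.5 h and without LPS. The standard deviation among WT libraries was 0.62 at 0.5 h and 0.03 without LPS. The depth behind the deposited values is unknown because they are not counts.

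*Nfkb1* encodes NF-κB1 p105, a precursor of the p50 subunit of NF-κB. It also acts as a scaffold that binds the kinase TPL-2 (encoded by *Map3k8*) together with ABIN-2 (encoded by *Tnip2*) and keeps TPL-2 from its substrates. After LPS binds TLR4, the IκB kinase (IKK) complex phosphorylates p105 on serines near its C terminus, p105 is degraded by the proteasome, and TPL-2 is freed to phosphorylate MKK1/2, which activate ERK1/2. The SS/AA change replaces the IKK target serines with alanine and is used to block this release. ERK1/2 act on ternary complex factors, which drive immediate early genes such as *Egr1* and *Fos* within minutes.

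The 3 genes of the complex were measured first. *Nfkb1* itself (GRCm38, chromosome 3, 135584655 to 135691969) had levels of 11.36, 11.40 and 11.47 (lowest, median and highest of 6 libraries, on the deposited log2 scale) in WT and 11.35, 11.41 and 11.51 in p105 mutant cells. These overlapped, and the log2 difference of 0.02 ± 0.05 (SE) gave an adjusted p of 0.85. Values per gene do not show the exchanged bases, so the genotype could not be checked from this gene. *Map3k8* did not pass the test (0.14 ± 0.06, adjusted p = 0.097) and neither did *Tnip2* (-0.06 ± 0.05, adjusted p = 0.41). Here and throughout, a log2 difference is p105 mutant minus WT, and the adjusted p is from limma over 11971 genes with Benjamini-Hochberg adjustment. Of 28 genes coding for parts of the p105, TPL-2, ERK and RSK pathway, 2 were higher (among them *Map2k6* by 0.17) and 0 lower (3 lower at an unadjusted limma p below 0.05), with a median of 0.01. A gene is called lower or higher at an adjusted p below 0.05, which held for 15.6% and 16.7% of all genes tested in the respective directions, and changed when the log2 difference was also at least 1 in size.

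The libraries were those of macrophages. The 12 macrophage markers had mean levels of 13.30 to 13.42 in WT and of 13.30 to 13.42 in p105 mutant libraries, whereas means of the 6 erythroid markers lay at -1.18 to -1.14 and -1.18 to -1.13 and the 6 T cell markers at 0.94 to 1.13 and 0.92 to 1.05. None of the 8 neutrophil markers, 2 T cell markers, 1 B cell marker and 2 fibroblast markers that passed the filter on low values was lower or higher at 0.5 h by limma, although 4 of the neutrophil markers were higher at an unadjusted p below 0.05 (median difference 0.30 over the 8, mean level of the list 3.21 to 3.73 in WT and 3.43 to 4.10 in p105 mutant libraries). Against WT replicates 4 to 6 alone, 4 neutrophil markers and the B cell marker were higher, against 7 to 9 alone 0 were, and 3 neutrophil markers were higher without WT replicate 9. The part of such cells in the results was not tested. WT replicates 4 to 6 and 7 to 9 stood apart. The root mean square distance between libraries over all genes tested was 0.13 to 0.16 within the first set, 0.16 to 0.27 within the second, and 0.22 to 0.28 between the sets, against 0.14 to 0.25 among p105 mutant libraries and 0.25 to 0.35 between WT and p105 mutant libraries. Among the 74 genes with an LPS response of 2-fold or more in WT, the median response was 1.39 in replicates 4 to 6 and 2.30 in replicates 7 to 9. By limma 18 genes responded at least 2-fold more strongly and 0 less strongly in the second set (65 and 11 at an adjusted p below 0.05 alone). Transcript length moved with the sets as well. The Spearman correlation across genes of length with a library's deviation from the WT mean was -0.31, -0.20 and -0.02 in replicates 4 to 6 and 0.17, 0.17 and 0.14 in replicates 7 to 9. The part of these sets in the results was not tested, and values against each set are given below for many of the main genes and lists.

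At 0.5 h of LPS, 24 genes were lower and 42 higher by at least 2-fold, which is 0.2% and 0.351% of the 11971 genes tested. *Egr1* was the lowest of the lower genes, which also held *Egr3*, *Fosb*, *Fos* and *Ier2*, and 8 of the higher genes belonged to a fixed list of cholesterol genes. The 2 groups of 6 libraries did not overlap for 22 of the 24 lower and 38 of the 42 higher genes, while 14.5% of all genes tested did not overlap. Against WT replicates 4 to 6 and against 7 to 9, all 66 kept their sign, and 13 of the lower and 23 of the higher genes were changed at least 2-fold against both sets. Most differences were present without LPS. Of the higher genes, 41 were higher in unstimulated p105 mutant cells too (median log2 difference of 1.13 unstimulated and 1.15 at 0.5 h), and of the lower genes, 20 were lower unstimulated (medians of -0.96 and -1.15). Higher and lower genes were 16.9% and 15.1% of all genes tested in unstimulated cells. The plot of the differences before and after LPS shows most changed genes along the line of equal difference, with *Egr1*, *Egr3*, *Fosb*, *Fos*, *Ier2*, *Ifnb1* and *Adamts1* away from it.

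**Figure D1:**
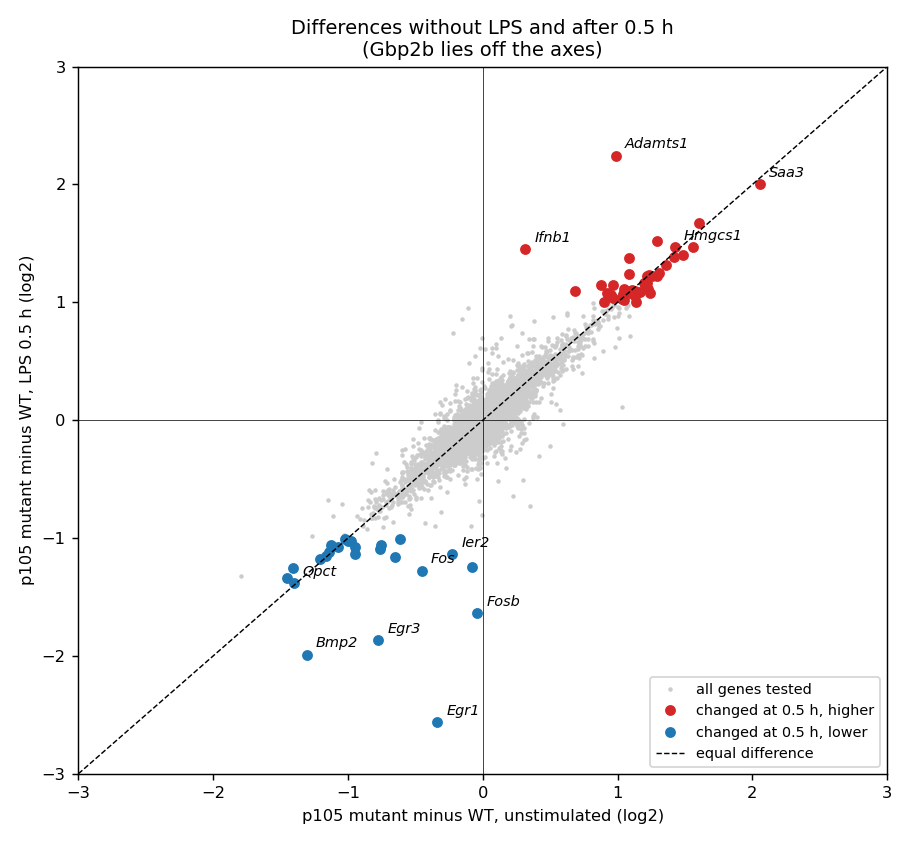
Log2 difference of p105 mutant minus WT in unstimulated cells (x axis) and at 0.5 h of LPS (y axis), 1 point per gene tested, with the 24 lower and 42 higher genes coloured and the line of equal difference dashed. Egr1 lies at -0.34 and -2.56, far below the line, Hmgcs1 lies on it at 1.43 and 1.47, and Gbp2b (5.96 and 5.82) is off the axes.

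Whether the LPS response itself differed was tested as the difference between the responses of the 2 genotypes, which takes off whatever was present without LPS. The response differed for 37 genes (0.309% of those tested), with a lower value (mutant minus WT) for 14 and a higher value for 23. A lower value was not always a smaller rise, since the LPS response was 0.26 in WT and -0.29 in p105 mutant cells for *Dusp6*, 0.11 and -0.22 for *Zfp46*, -0.48 and -0.89 for *Zfp87* and -0.06 and -0.35 for *Zbtb6*. In the 2 directions these were 0.117% and 0.192% of the genes tested. At least 2-fold differences were found for 5 genes (0.0418%), with *Egr1*, *Fosb* and *Egr3* lower (0.0251%) and *Adamts1* and *Pde4b* higher (0.0167%). At least 2-fold rises after LPS were found for 74 genes in WT (0.618%) and 87 in p105 mutant cells (0.727%), and the 65 genes raised in both were 87.8% of the first and 74.7% of the second list. The number was 57 in WT replicates 4 to 6 alone and 101 in WT replicates 7 to 9 alone. The 87 of p105 mutant cells thus lay between the WT sets, and the difference between 74 and 87 was not tested.

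The 3 genes with the largest shortfall in response, *Egr1*, *Fosb* and *Egr3*, encode transcription factors of the EGR and FOS families. *Egr1* encodes a zinc finger factor and is a classical target of ERK-activated ternary complex factors. Its level was 13.02, 13.17 and 14.27 in WT and 10.65, 10.71 and 11.04 in p105 mutant libraries. The groups did not overlap, and the highest WT value was that of replicate 8. The difference was -2.56 ± 0.14 (SE, adjusted p = 9.9e-29), and the response was weaker by -2.22 ± 0.20 (adjusted p = 2.0e-14), since LPS raised *Egr1* by 5.34 in WT and by 3.12 in p105 mutant cells. Without LPS the difference of -0.34 had an adjusted p of 0.062. Against WT replicates 4 to 6 the response was weaker by -1.99 and against 7 to 9 by -2.45, both past the threshold.

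*Egr3*, a paralog of *Egr1*, had levels of 8.95, 9.44 and 10.03 in WT and 7.42, 7.56 and 7.84 in p105 mutant cells. Again no library of one group reached the other, and the difference was -1.87 ± 0.13 (adjusted p = 5.8e-22). It was lower by -0.78 without LPS already, and the response differed by -1.09 ± 0.19 (adjusted p = 0.00018). The shortfall in response was -0.67 against WT replicates 4 to 6, which did not pass the test (adjusted p = 0.19), and -1.51 against replicates 7 to 9. *Egr2* was lower by -0.32 at 0.5 h (adjusted p = 0.026), with no difference in response past the test (-0.49, adjusted p = 0.48).

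*Fosb*, an AP-1 subunit gene, responded little to LPS in the mutant. WT levels were 7.89, 8.65 and 9.34 and p105 mutant levels 6.78, 6.97 and 7.13, with the lowest WT library above the highest mutant one. The response was 2.00 in WT and 0.40 in p105 mutant cells, a difference of -1.60 ± 0.16 (adjusted p = 2.2e-12), at -1.08 against WT replicates 4 to 6 and -2.12 against 7 to 9, while unstimulated cells differed by -0.04 (adjusted p = 0.83). *Fos* itself was at 13.59, 13.86 and 13.99 in WT and at 12.22, 12.54 and 12.80 in p105 mutant cells. This gave a difference of -1.28 ± 0.11 at 0.5 h (adjusted p = 4.4e-18), of which -0.45 was present without LPS. Its response was weaker by -0.82 ± 0.15 (adjusted p = 0.00048), and by nearly the same amount against WT replicates 4 to 6 (-0.82) and 7 to 9 (-0.83).

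**Figure D2:**
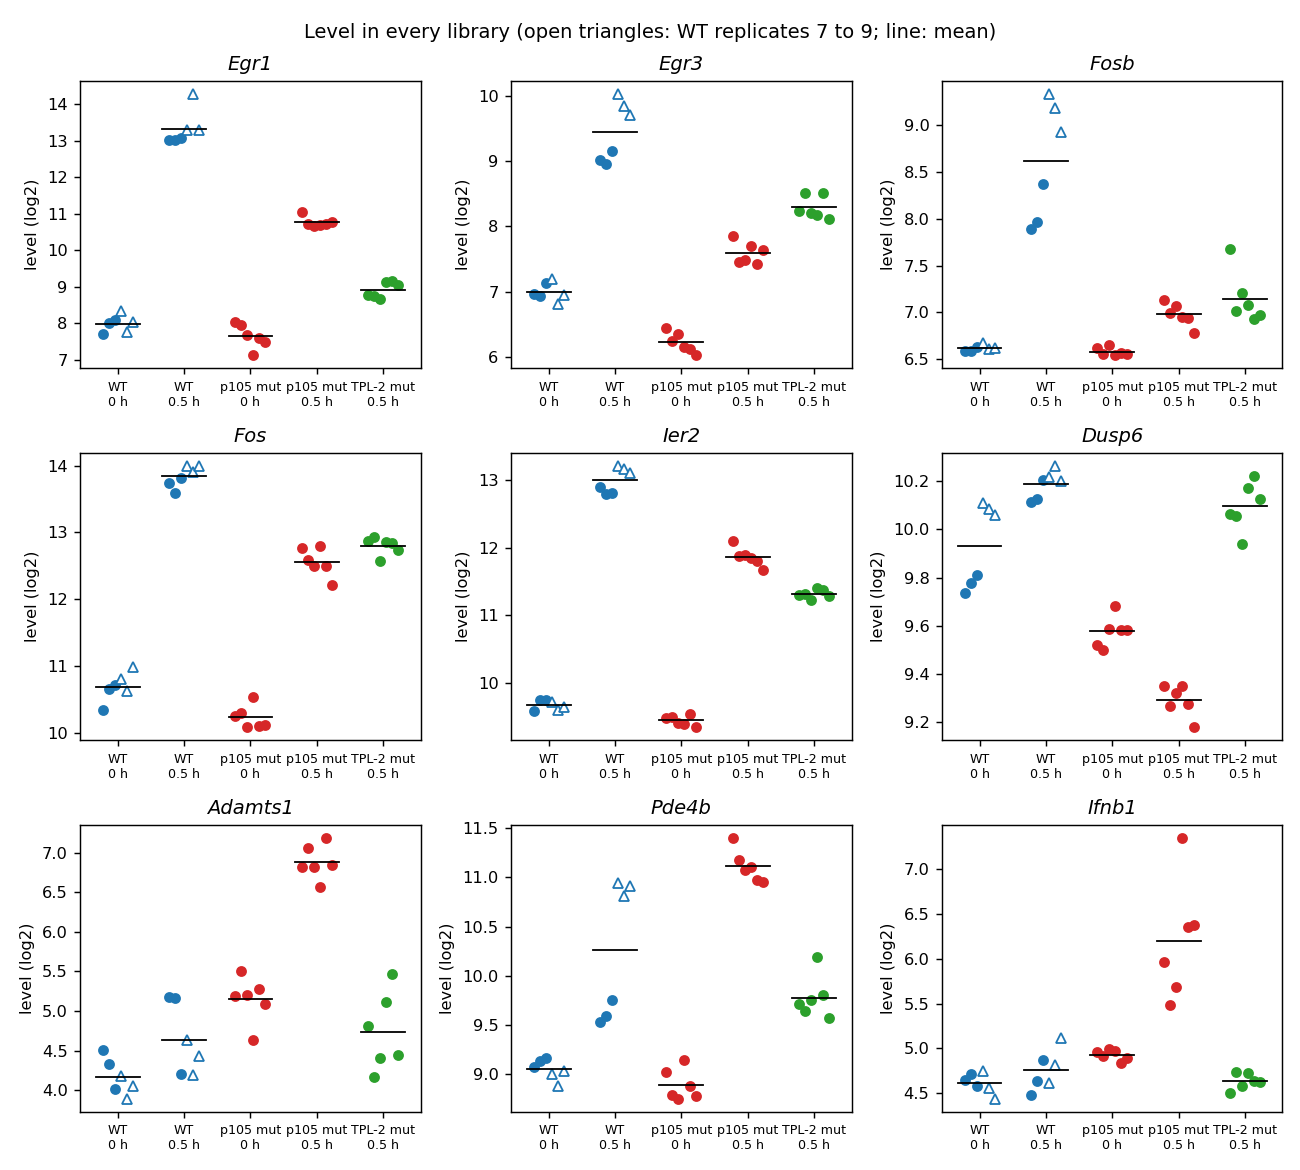
Level (log2, y axis) of 9 genes in every library of WT and p105 mutant cells without LPS (0 h) and at 0.5 h and of TPL-2 kinase-dead cells at 0.5 h, with the mean as a line and WT replicates 7 to 9 as open triangles. The 6 p105 mutant libraries lie below all WT libraries at 0.5 h for Egr1, Egr3, Fosb, Fos, Ier2 and Dusp6 and above them for Adamts1, Pde4b and Ifnb1.

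The promoters of *Fos* and *Fosb*, whose responses were weaker, and of *Adamts1*, whose response was stronger, are shown because all hold the core of the cAMP response element (TGACG on either strand), which is bound by CREB and ATF factors. They were taken from RefSeq on GRCm38.p6 and span 250 bases before to 50 after the start, at chr12:85473640-85473939 (+ strand), chr7:19309996-19310295 (- strand) and chr16:85803064-85803363 (- strand). Capitals mark each match, all of which read TGACG on the strand shown.
Fos: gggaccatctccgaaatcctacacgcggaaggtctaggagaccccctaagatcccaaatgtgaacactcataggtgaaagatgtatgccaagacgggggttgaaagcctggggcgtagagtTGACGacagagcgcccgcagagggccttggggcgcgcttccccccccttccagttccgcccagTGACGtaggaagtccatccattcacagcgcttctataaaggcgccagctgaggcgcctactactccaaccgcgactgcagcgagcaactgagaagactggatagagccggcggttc
Fosb: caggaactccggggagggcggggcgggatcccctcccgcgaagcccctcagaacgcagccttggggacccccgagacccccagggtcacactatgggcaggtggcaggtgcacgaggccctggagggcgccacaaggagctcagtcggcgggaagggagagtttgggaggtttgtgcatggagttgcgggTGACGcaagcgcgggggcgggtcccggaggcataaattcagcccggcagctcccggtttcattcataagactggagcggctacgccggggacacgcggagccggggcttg
Adamts1: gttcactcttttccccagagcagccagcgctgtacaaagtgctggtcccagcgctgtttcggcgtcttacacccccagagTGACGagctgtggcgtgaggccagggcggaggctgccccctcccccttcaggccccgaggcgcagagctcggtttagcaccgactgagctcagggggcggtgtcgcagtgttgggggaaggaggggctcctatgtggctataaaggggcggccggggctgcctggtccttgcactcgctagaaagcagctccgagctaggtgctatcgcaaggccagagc
The core was present in 23.0% of the promoters of all 27025 genes in the RefSeq promoter table and in 36.0% of the 9215 tested genes among them. It was found for 4 of 9 genes with a lower response and 16 of 19 with a higher response that had a promoter. Among immediate early genes with a promoter, it was found for 14 of 18 transcription factor genes and 10 of 19 others. The CArG box, the motif of the serum response factor, was found on either strand in 1.81% of all promoters and, among 18 immediate early factor genes with a promoter, in those of *Egr2* and *Srf* only. It was in 0 of the 9 promoters of genes with a lower and 0 of the 19 of genes with a higher response. A match is a description of the letters in this window.

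Of the 24 immediate early transcription factor genes tested, 8 were lower and 6 higher at 0.5 h (median -0.02). Beside the EGR and FOS genes, *Nr4a1*, an orphan nuclear receptor gene, was lower by -0.87 ± 0.18 (adjusted p = 5.8e-05) with overlapping groups (10.14, 10.91 and 11.58 in WT and 9.31, 10.03 and 10.58 in p105 mutant cells). Its response did not differ past the test (-0.44, adjusted p = 1.0, and 0.10 against WT replicates 4 to 6), and against WT replicates 4 to 6 alone the difference at 0.5 h was -0.40 (adjusted p = 0.15). The genes *Klf2* (-0.72) and *Junb* (-0.25) were lower as well, whereas *Jun* stood at 0.01 (adjusted p = 0.92) and *Bhlhe40* (0.62), *Csrnp1* (0.61), *Maff* (0.50), *Klf6* (0.34), *Klf4* (0.30) and *Atf3* (0.29) were higher. The list's split depended on the WT set, with 5 lower and 9 higher against WT replicates 4 to 6 and 11 lower and 1 higher against 7 to 9.

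The 25 other immediate early genes tested gave 7 lower and 10 higher (median -0.02), with 4 and 8 against WT replicates 4 to 6 and 9 and 6 against 7 to 9. *Ier2*, a nuclear protein gene switched on by growth factors, had levels of 12.81, 13.00 and 13.22 in WT and of 11.68, 11.86 and 12.10 in p105 mutant cells. Its groups were apart, the difference was -1.14 ± 0.08 (adjusted p = 6.7e-23) and the response was weaker by -0.91 ± 0.11 (adjusted p = 5.0e-09), and the response was weaker against either WT set (-0.72 and -1.10). *Arc* was lower by -0.69 at levels between 4.17 and 5.32, near the bottom of the range tested. *Id3*, an inhibitor of basic helix-loop-helix factors, was higher by 1.09 ± 0.23 (adjusted p = 0.00011), with groups that overlapped and a difference of 0.63 against WT replicates 7 to 9 that did not pass the test (adjusted p = 0.084).

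Among phosphatase genes that feed back on MAP kinases, the direction differed by gene. *Dusp6*, which encodes a cytoplasmic ERK phosphatase, was at 10.11, 10.20 and 10.26 in WT and at 9.18, 9.30 and 9.35 in p105 mutant cells, without overlap. The difference was -0.90 ± 0.09 (adjusted p = 2.6e-15). LPS moved *Dusp6* by 0.26 in WT and by -0.29 in p105 mutant cells, so that the response differed by -0.54 ± 0.12 (adjusted p = 0.011), with -0.66 against WT replicates 4 to 6 and -0.43 against 7 to 9, where it did not pass (adjusted p = 0.72). *Dusp2* responded more weakly (-0.63, adjusted p = 0.049), with -0.09 against WT replicates 4 to 6 and -1.16 against 7 to 9, and did not pass the test when replicates were paired (adjusted p = 0.43). *Dusp5* was lower by -0.90 at 0.5 h and by -0.74 without LPS, and with WT replicates 4 to 6 alone its difference at 0.5 h fell to -0.26 (adjusted p = 0.12). In contrast, *Dusp8* (0.61) and *Dusp4* (0.55) were higher, and so were their responses (0.51 and 0.43), but against WT replicates 7 to 9 these stood at 0.25 and 0.27 and did not pass the test (adjusted p = 1.0 for both), nor did *Dusp8* with paired replicates (adjusted p = 0.13). Of the 17 genes on this feedback list, 4 were lower and 3 higher, against 1 and 5 with WT replicates 4 to 6 alone and 6 and 2 with 7 to 9.

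A few genes responded more strongly in the mutant. *Adamts1*, a secreted metalloprotease gene, was at 4.19, 4.54 and 5.17 in WT, at 6.56, 6.83 and 7.19 in p105 mutant cells, and at 4.17, 4.63 and 5.47 in TPL-2 kinase-dead cells. The levels in WT and TPL-2 kinase-dead cells were near the bottom of the range tested. The WT and p105 mutant groups did not overlap, with a difference of 2.24 ± 0.18 (adjusted p = 8.0e-20). It was higher without LPS by 0.98, and its response was stronger by 1.26 ± 0.25 (adjusted p = 0.0019), at 1.17 against WT replicates 4 to 6 and 1.35 against 7 to 9. *Pde4b*, which encodes a cAMP phosphodiesterase, was at 9.53, 10.28 and 10.95 in WT and at 10.95, 11.09 and 11.40 in p105 mutant cells. The highest WT library and the lowest p105 mutant library nearly touched. Its response was stronger by 1.01 ± 0.16 (adjusted p = 1.1e-05) against all WT libraries and by 1.72 against replicates 4 to 6, but by only 0.30 against replicates 7 to 9 (adjusted p = 1.0). With the replicates paired within each genotype, the *Pde4b* response did not pass the test (adjusted p = 0.27).

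Most genes with a higher response depended on the WT set in this way. All 23 had the same sign against both WT sets, but 21 passed the test against WT replicates 4 to 6, 4 against 7 to 9 and 2 (*Adamts1* and *Srsf5*) against both. Among them *Cd83*, a surface protein gene of activated antigen presenting cells, differed by 1.19 against the first set and by 0.00 against the second, and *Csrnp1* by 1.13 and 0.15. Smaller spreads were seen for *Sgk1* (0.58 and 0.51), *Tlr2* (0.69 and 0.49), *Trim13* (0.66 and 0.47) and *Ets2* (0.48 and 0.44). Of the 14 genes with a lower response, 8 passed the test against each set and 4 (*Egr1*, *Fosb*, *Ier2* and *Fos*) against both. With the replicates paired within each genotype, 11 of the 14 and 14 of the 23 passed, and the number of genes past the adjusted p was 27 lower and 26 higher.

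**Figure D3:**
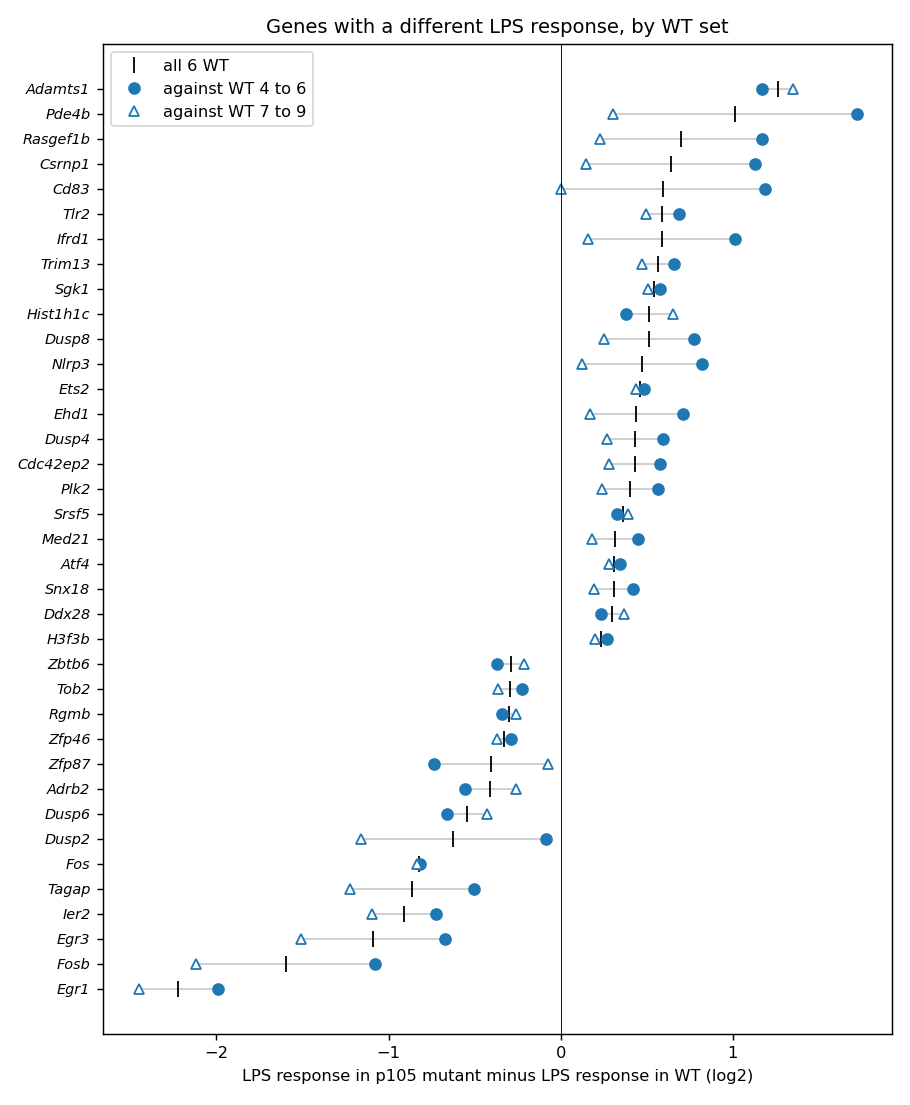
Difference in LPS response (log2, x axis; p105 mutant minus WT) for the 37 genes past the test, against all 6 WT replicates (vertical mark), replicates 4 to 6 (filled circle) and 7 to 9 (open triangle). The points of Egr1, Fos and Adamts1 lie close together (-1.99 and -2.45, -0.82 and -0.83, 1.17 and 1.35), while those of Pde4b (1.72 and 0.30) and Cd83 (1.19 and 0.00) lie apart.

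NF-κB and its targets mostly showed small differences, and for *Nfkbiz*, *Nfkbib* and *Zc3h12a* the sign depended on the WT set. Of 11 genes for NF-κB subunits and IκB proteins, 1 was lower (*Nfkb2*, -0.14) and 3 higher (*Rel*, *Nfkbib* and *Nfkbiz*, by 0.16 to 0.29), and *Nfkbia*, which encodes IκBα, stood at -0.03 (adjusted p = 0.64). This balance turned with the WT set, with 0 lower and 5 higher against replicates 4 to 6 and 3 lower and 0 higher against 7 to 9, and 0 were higher when WT replicate 4, 5 or 6 was left out. *Nfkbiz* stood at 0.25 against all WT libraries (adjusted p = 0.012), at 0.70 against replicates 4 to 6 and at -0.21 against replicates 7 to 9 (adjusted p = 0.0049). Of 22 NF-κB feedback and target genes, 3 were lower and 8 higher (median 0.10), among them *Slfn2* (0.55), *Ralgds* (0.51), *Tnfaip3* (0.43) and *Traf1* (-0.61). The numbers were 3 lower and 11 higher against WT replicates 4 to 6 (median 0.20) and 4 lower and 4 higher against 7 to 9 (median -0.01). The LPS responses of these genes were higher for 1 of 22 against all WT libraries, for 9 of 22 against WT replicates 4 to 6 and for 0 of 22 against replicates 7 to 9 (13 and 0 at an unadjusted limma p below 0.05), with medians of 0.30 and -0.01. Of 20 genes of TLR4 signalling, 6 were higher, such as *Ticam1* (0.27) and *Tollip* (0.26), and *Tlr4* was lower by -0.19 (adjusted p = 0.016).

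Cytokine genes moved in both directions, with 5 lower and 6 higher of 22 tested, and the balance turned from 3 lower and 7 higher against WT replicates 4 to 6 to 7 lower and 3 higher against 7 to 9. *Ifnb1*, the gene for IFN-β, was at 4.48, 4.72 and 5.12 in WT and at 5.49, 6.16 and 7.35 in p105 mutant cells. Its WT levels were near the bottom of the range tested. No libraries overlapped, and the difference was 1.45 ± 0.25 (adjusted p = 1.4e-06), with a difference of 0.31 without LPS that did not pass the test (adjusted p = 0.35). LPS raised it by 0.14 in WT and 1.28 in p105 mutant cells, a difference in response of 1.14 ± 0.35 that did not pass the test over all genes (adjusted p = 0.30). The difference from WT was 3.26 at 1 h of LPS. *Il1a* was higher by 0.80 against all WT libraries, but its WT levels ran from 7.35 to 9.19 and it stood at 1.60 against replicates 4 to 6 and at -0.00115 against replicates 7 to 9 (adjusted p = 1.0). *Tnf* (0.43) and *Il1b* (0.55) were higher, *Il1rn*, the interleukin-1 receptor antagonist gene, was lower by -0.60 at 0.5 h and by -0.71 without LPS, and *Il10* stood at -0.30 (adjusted p = 0.25).

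Of 19 chemokine genes, 6 were lower and 5 higher, with 3 and 5 against WT replicates 4 to 6 and 8 and 3 against 7 to 9. *Ccl7*, a monocyte attractant gene, was at 10.91, 11.20 and 11.74 in WT and at 10.13, 10.44 and 10.65 in p105 mutant cells, without overlap (-0.86 ± 0.12, adjusted p = 2.8e-09), and *Ccl2* was lower by -0.44. *Ccl5* was higher by 0.70 (adjusted p = 0.0017) and *Cxcl10*, an interferon-induced chemokine gene, by 1.15 ± 0.19 (adjusted p = 5.8e-07). None of these chemokines differed in LPS response past the test, and by limma 0 of the 19 did (1 lower and 1 higher at an unadjusted p below 0.05).

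Of 31 interferon-stimulated genes tested, 15 were higher and 0 lower at 0.5 h (median 0.35) and 15 were higher unstimulated (median 0.46), and 0 differed in response by limma, also at an unadjusted p below 0.05. *Ifit2*, an antiviral gene, was at 11.21, 11.37 and 11.83 in WT and 11.75, 12.21 and 13.68 in p105 mutant cells, so that the groups overlapped (0.95 ± 0.28, adjusted p = 0.0051). The levels varied among p105 mutant replicates. Replicates 1 to 3 had *Ifit2* levels of 11.93, 11.76 and 11.75 and replicates 4 to 6 levels of 13.68, 12.49 and 12.73, and *Ifnb1* was at 5.96, 5.49 and 5.69 in the first 3 and at 7.35, 6.35 and 6.38 in the others. Without p105 mutant replicate 4, 4 of the 31 genes were higher (median 0.18), and with all mutant libraries 7 were higher against WT replicates 4 to 6 and 5 against 7 to 9. Genes of this list were also higher in WT cells that had been given DMSO, the solvent of an inhibitor, in another experiment (26 of 31 against the same unstimulated WT libraries, median 0.78, with *Ifit2* at 1.45), where 12.5% of all genes tested were higher and 11.1% lower. Against the same libraries, the median was 0.88 in unstimulated Elk1-/-Elk4-/- cells, which were given no inhibitor. Without LPS it was 0.92 in cells given a MEK inhibitor, 0.51 in cells given an RSK inhibitor and -0.05 in TPL-2 kinase-dead cells. The cause was not tested.

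**Figure D4:**
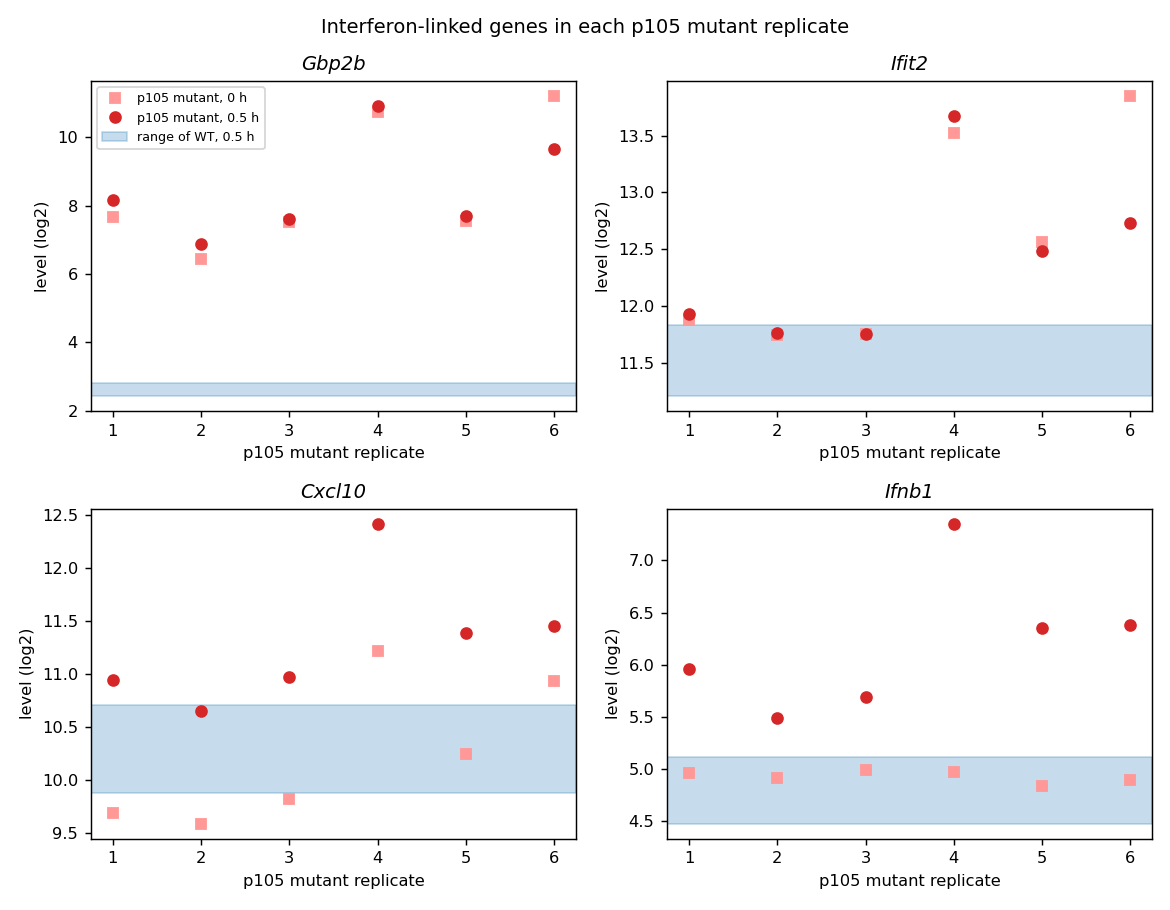
Level (log2, y axis) of 4 genes in p105 mutant replicates 1 to 6 (x axis) without LPS (squares) and at 0.5 h (circles), with the range of the 6 WT libraries at 0.5 h shaded. Replicate 4 is highest at 0.5 h in all 4 genes, replicate 6 is highest without LPS for Gbp2b and Ifit2, and Gbp2b is above the WT range in every replicate.

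*Gbp2b*, which encodes a guanylate-binding protein (chromosome 3, 142594816 to 142619179), was at 2.43, 2.73 and 2.81 in WT and at 6.87, 7.93 and 10.91 in p105 mutant libraries. The groups were far apart. All WT libraries at 0 and 0.5 h were below the 10 on the linear scale that the filter on low values asks for, so the gene was tested only because it was high elsewhere, and its differences are given as a description. They were 5.82 ± 0.37 (SE) at 0.5 h and 5.96 without LPS, both set against a WT level below the filter, and 0.14 between DMSO-treated and other unstimulated WT cells. The gene lies 6.97 Mb from *Nfkb1* on the same chromosome. Of 62 genes tested within 10 Mb of *Nfkb1*, 54.8% were lower or higher and 3.23% were changed at least 2-fold (*Gbp2b* and *Sgms2*), against 34.7% and 0.99% of the 505 others on chromosome 3 and 32.3% and 0.551% of all genes tested. Since *Gbp2b* was tested only because it was high elsewhere, the 3.23% is a description too. Within 10 Mb, *Gbp2* (0.70) and *Gbp3* (0.71) were higher too, and both were also higher in DMSO-treated WT cells (1.03 and 0.93). Sharing of reads among *Gbp2b*, *Gbp2* and *Gbp3* was not tested, so their single values are uncertain.

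Genes of cholesterol synthesis were higher together, with or without LPS. Of 15 genes for cholesterol synthesis and its regulators, 12 were higher at 0.5 h and 1 lower (*Nr1h3*, the LXRα gene, -0.20), with a median of 1.098 against -0.00288 over all genes tested. Against WT replicates 4 to 6, 12 were higher and 2 lower (median 1.27), and against 7 to 9, 11 were higher and 0 lower (median 0.91). *Hmgcs1* (HMG-CoA synthase) was at 11.02, 11.41 and 11.64 in WT and 12.65, 12.90 and 12.99 in p105 mutant cells, without overlap. Its difference was 1.47 ± 0.08 (adjusted p = 3.8e-29) at 0.5 h and 1.43 unstimulated. *Lss* (1.40), *Fdft1* (1.39), *Idi1* (1.23), *Insig1* (1.15) and *Cyp51* (1.11) were higher as well, and *Mvd*, a mevalonate pathway gene outside the list, by 1.47 ± 0.09. By limma 0 of the 15 differed in LPS response, also at an unadjusted p below 0.05, and *Abca1* and *Abcg1*, cholesterol exporters, did not pass the test (-0.22 and -0.20).

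The same genes were measured in the other arms, which are compared with the same WT libraries and are given here side by side. Unstimulated *Hmgcs1* was at 10.97, 11.25 and 11.31 in WT, at 12.43, 12.62 and 12.81 in p105 mutant cells and at 12.60, 12.67 and 12.73 in 3 libraries of DMSO-treated WT cells. The DMSO-treated WT cells thus lay within the p105 mutant range and above all other WT libraries. Against unstimulated WT cells, 11 of the 15 genes were higher in DMSO-treated WT cells (median 0.74), and the median was -0.10 in TPL-2 kinase-dead cells at 0.5 h. In the remaining arms at 0.5 h of LPS, the median difference from WT was 0.46 in Elk1-/-Elk4-/- cells, 0.56 in cells given a MEK inhibitor and 0.07 in cells given an RSK inhibitor. Whether the difference belongs to the genotype or to the experiment cannot be told apart.

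**Figure D5:**
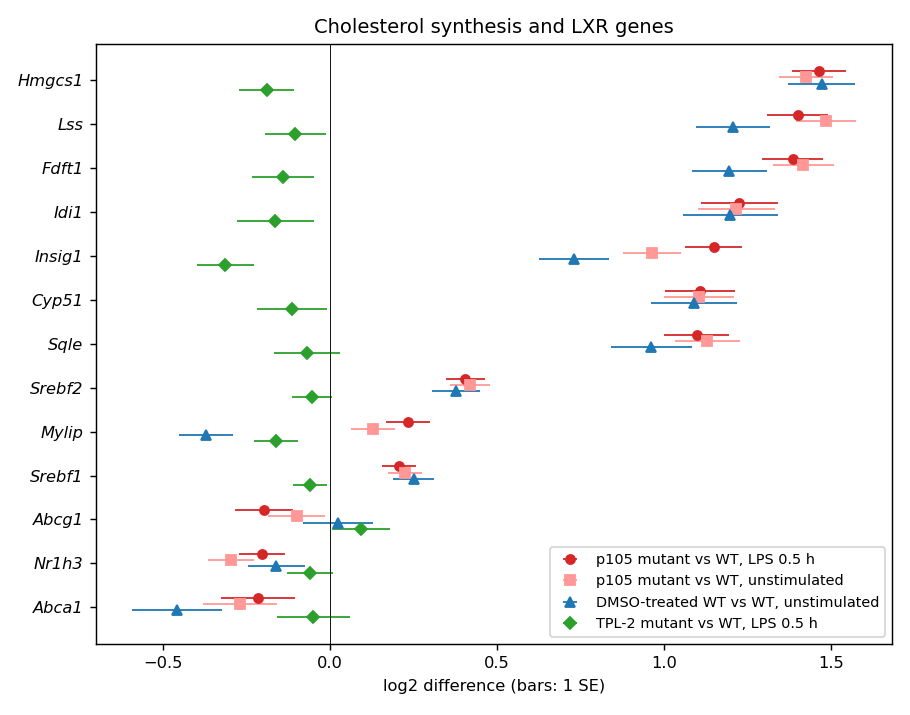
Log2 difference (x axis, bars of 1 SE) of 13 cholesterol synthesis and LXR genes in p105 mutant against WT cells at 0.5 h and unstimulated, in DMSO-treated against other unstimulated WT cells, and in TPL-2 kinase-dead against WT cells at 0.5 h. Hmgcs1 is at 1.47, 1.43, 1.47 and -0.19 in that order.

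*Hmgcs1* was the member of this list whose promoter held the SREBP site TCACNCCAC (either strand), among 10 with a RefSeq promoter. The motif was in 1.44% of all promoters. The sequence from RefSeq on GRCm38.p6, chr13:119690101-119690400 (+ strand), is shown with this site in capitals.
Hmgcs1: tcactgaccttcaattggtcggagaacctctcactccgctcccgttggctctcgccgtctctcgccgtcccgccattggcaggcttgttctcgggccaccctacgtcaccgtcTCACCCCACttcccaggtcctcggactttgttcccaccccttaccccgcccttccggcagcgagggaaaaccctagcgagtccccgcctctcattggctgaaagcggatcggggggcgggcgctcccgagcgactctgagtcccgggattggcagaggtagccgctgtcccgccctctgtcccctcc
SREBP factors, which are switched on when sterols are low, bind such sites.

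Other genes that were already different without LPS had various roles. *Phgdh*, the first enzyme of serine synthesis, was at 7.02, 7.25 and 7.62 in WT and at 8.68, 8.90 and 9.31 in p105 mutant cells (1.67 ± 0.10, adjusted p = 7.7e-27). *Chac1* (1.52), *Asns* (1.15), which encodes asparagine synthetase, and *Trib3* (1.03) were higher too. *Atf4*, a transcription factor gene, was higher by 0.69 with a response higher by 0.31 (adjusted p = 0.014), which against WT replicates 7 to 9 was 0.28 and did not pass the test (adjusted p = 0.47). *Asns*, *Trib3* and *Atf4* were chosen after their values were seen. In DMSO-treated WT cells, *Chac1* and *Trib3* stood at 0.05 and 0.13 and did not pass the test, while *Phgdh* and *Asns* were higher by 0.63 and 0.54. *Saa3*, an acute phase gene, was higher by 2.01 ± 0.20 (adjusted p = 3.2e-14), and the fatty acid-binding protein genes *Fabp4* and *Fabp5* by 1.24 and 1.23.

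Among the lower genes, *Qpct*, which encodes glutaminyl cyclase (chromosome 17, 79051906 to 79090378), had the lowest adjusted p of all genes tested. It was at 10.19, 10.39 and 10.53 in WT and at 8.82, 9.01 and 9.08 in p105 mutant cells (-1.38 ± 0.06, adjusted p = 6.4e-39), at -1.40 without LPS and at 0.22, in the other direction, in DMSO-treated WT cells. *Bmp2*, a growth factor gene, was lower by -1.99 ± 0.17 (adjusted p = 4.0e-17), by -1.30 without LPS and by -1.12 in DMSO-treated WT cells. The uncharacterized gene *Gm44504* was lower by -1.34 (-1.45 without LPS and -1.14 in DMSO-treated WT cells). *Siglec1*, a macrophage sialic acid receptor gene, was lower by -1.08, and of the 12 macrophage markers 3 were lower and 2 higher, with *Adgre1* at -0.35, *Mrc1* at -0.36 and *Lyz2* at 0.39.

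Further lists showed smaller shifts. Of 11 heat shock and chaperone genes, 8 were lower and 0 higher (median -0.18), led by *Hspa1b* (-0.78), *Hsph1* (-0.51) and *Hsp90aa1* (-0.37), with 5 lower against WT replicates 4 to 6 and 9 against 7 to 9. Without LPS 7 of them were lower. *Hspa1b* fell to -0.22 against WT replicates 4 to 6 alone (adjusted p = 0.29). Of 18 cell cycle genes 5 were lower, led by *Ccnd1* (-0.56), but the number was 1 without WT replicate 8 or against WT replicates 4 to 6 and 10 against 7 to 9, and 11 of the 18 were higher in DMSO-treated WT cells. Of 10 NRF2 target genes 7 were higher (median 0.24, with *Slc7a11* at 0.60 and *Nqo1* at 0.53), but 3 without p105 mutant replicate 4 or against WT replicates 4 to 6 and 4 against 7 to 9, and 6 of the 10 were lower in DMSO-treated WT cells. Of 15 glycolysis and hypoxia genes 3 were lower and 3 higher (1 and 2 against WT replicates 4 to 6, 4 and 1 against 7 to 9), of 8 interferon regulatory factors 1 was lower and 2 higher (*Irf1* by 0.69), and of 12 mRNA decay factors 3 were lower and 1 higher (0 and 1 against WT replicates 4 to 6, 5 and 0 against 7 to 9). *Xcr1*, a dendritic cell marker, differed by 0.35 at levels of 2.97 to 3.60. All its WT libraries at 0.5 h were below the 10 on the linear scale of the filter, so this is given as a description. *Kit*, a mast cell marker, was lower by -0.83, and *Lars2*, where ribosomal RNA reads collect, was higher by 0.89 (adjusted p = 0.00016) and by the same 0.89 in DMSO-treated WT cells. The part of *Lars2* reads in the other differences was not tested.

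The p105 mutant was then compared directly with TPL-2 kinase-dead cells at 0.5 h, which needs no WT library. Here 35 genes were lower and 69 higher in p105 mutant cells by at least 2-fold (0.292% and 0.576% of the genes tested). *Egr1* was at 8.66, 8.90 and 9.15 in TPL-2 kinase-dead cells, so that the p105 mutant was higher by 1.85 ± 0.14 (adjusted p = 5.2e-20) while both were below WT (-4.41 in TPL-2 kinase-dead cells). *Ier2* was also higher in p105 mutant cells (0.55 ± 0.08, adjusted p = 1.2e-08). The level at 0.5 h was lower in p105 mutant than in TPL-2 kinase-dead cells for *Egr3*, by -0.71 ± 0.13 (adjusted p = 9.3e-06), and for *Dusp6* (-0.81, adjusted p = 2.0e-13). *Egr3* was also lower without LPS, at 6.02, 6.20 and 6.44 in p105 mutant and 7.60, 7.80 and 8.13 in TPL-2 kinase-dead cells, and a difference in response between the mutants was not tested. *Fos* (-0.24 ± 0.11, adjusted p = 0.063), *Fosb* (-0.17 ± 0.12, adjusted p = 0.25) and *Nr4a1* (0.41 ± 0.18, adjusted p = 0.061) did not pass the test of the difference.

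*Jun* (0.61), *Egr2* (0.57), *Junb* (0.38) and *Nfkbiz* (0.89) were higher in p105 mutant than in TPL-2 kinase-dead cells, as were *Adamts1* (2.15), *Ifnb1* (1.57), *Il1a* (1.34), *Pde4b* (1.34), *Il1b* (1.11) and *Tnf* (0.68). Sterol genes stood apart here too, with a median of 1.17 over the list and *Hmgcs1* higher by 1.66. *Map3k8* was higher in p105 mutant cells by 0.39 (adjusted p = 5.4e-07), and its difference between TPL-2 kinase-dead and WT cells was -0.25 (adjusted p = 0.014). The 2 mutants came from different experiments as well, so these differences and the experiment cannot be told apart.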

How the data were processed

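RNA-seq libraries of BMDMs were single-end and strand-specific, per the study's methods. The authors aligned reads to the mm10 genome and estimated expression per gene with RSEM, and the processing notes name STAR 2.5.1b, RSEM 1.2.29 and DESeq2 1.10.1. The authors deposited 1 table of normalised log2 values, from -2.40 to 19.81, for which the sources used here give no exact transformation. A single value of 57.73 was set missing. Depth could not be had from these values, so no counting error is given.

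Of 18098 genes, the 11971 that reached 10 on the linear scale in 3 or more libraries were tested with limma 3.58.1 in R 4.3.3, with 1 mean per group over all libraries and Benjamini-Hochberg adjustment. Changed means an adjusted p below 0.05 and a log2 difference of at least 1. The steps were tested on simulated data. Coordinates and promoters came from RefSeq on GRCm38.p6.

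Named genes were those of the complex, those the study followed by RT-PCR, up to 3 members per list with the largest difference, the 6 lower and 6 higher changed genes with the largest difference and no overlap, and up to 5 in each direction with the largest response difference among those past both thresholds. Further genes were named after their values were seen, and some genes are not reported here. The comparison and the gene lists were chosen with earlier results of these data known.

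Same-numbered libraries deviated together between 0 and 0.5 h within a genotype (correlations of 0.45 to 0.79 in WT and 0.36 to 0.67 in p105 mutant cells) but not between genotypes at 0.5 h (-0.06 for each of 3 shared numbers), so paired values stand beside results for the response only, and the 0.5 h comparison with the replicate block is given as an alternative. Alternatives were the libraries in the fit, the variance prior, the filter, the scaling, the fold threshold, each WT set, the replicate block and leaving out each library.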

Additional observations from a re-analysis of the deposited data

Results flagged for a closer look

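In 142 groups of 6 libraries (71 named genes in WT and p105 mutant cells at 0.5 h), 10 held 1 library apart from the others relative to the group's range. Its gap to the nearest, divided by that range, exceeded Dixon's critical value for 6 libraries. Chance gives about 1 in 20 such groups. The gap itself could be small, as for *Tlr4* (11.60 with the nearest at 11.64), or large, as for *Egr1* in WT (14.27 and 13.28). The highest library was WT replicate 8 for *Egr1* (0.79), p105 mutant replicate 1 for *Egr1* (0.692) and *Hspa1b* (0.789), p105 mutant replicate 5 for *Arc* (0.73) and *Lars2* (0.672), WT replicate 6 for *Xcr1* (0.735) and p105 mutant replicate 3 for *Mcm5* (0.644). The lowest was p105 mutant replicate 3 for *Tlr4* (0.684), replicate 6 for *Zc3h12d* (0.693) and replicate 5 for *Qpct* (0.674).

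Among the genes picked by the naming rule, the LPS response of 9 differed between p105 mutant and WT cells by the test of the difference itself. The difference (mutant minus WT) was negative for *Egr1* (-2.22), *Fosb* (-1.60), *Egr3* (-1.09), *Ier2* (-0.91), *Fos* (-0.82) and *Dusp6* (-0.54), and positive for *Adamts1* (1.26), *Pde4b* (1.01) and *Dusp8* (0.51). Against WT replicates 7 to 9 alone, the values were 0.30 for *Pde4b* and 0.25 for *Dusp8*.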

How the results depend on the processing

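Experiment and genotype cannot be told apart in any difference from WT, and depth is unknown. If the deposited scale were a natural logarithm, a 2-fold threshold (0.693) would give 76 lower and 118 higher genes at 0.5 h, 6 lower responses, and 93 lower and 174 higher genes against TPL-2 kinase-dead cells. Against WT replicates 7 to 9 alone, 40 genes were lower, 9 responses were at least 2-fold lower and 1 higher. In that setting the sign turned for *Nfkbiz* (-0.206), *Nfkbib* (-0.0334), *Zc3h12a* (-0.0395) and *Il1a* (-0.00115), and the cause was not tested. Against WT replicates 4 to 6 alone, 8 responses were higher. The fit over the libraries of the comparison alone gave 1 higher response.

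With the replicate block, which for the 0.5 h comparison rests on the 3 shared numbers, 86 genes were higher, and 1 response was at least 2-fold higher. These numbers did not pair WT with p105 mutant libraries. When single libraries were left out, 21 to 27 genes were lower and 37 to 49 higher, 2 to 4 responses were lower and 1 to 2 higher, with 1 without WT replicate 4, 5 or 6 or p105 mutant replicate 1 or 2. Of 70 named genes that could be compared at 0.5 h, 18 no longer passed the test against WT replicates 4 to 6 alone, 9 against 7 to 9 alone (beside the 4 whose sign turned), 9 in the fit over the libraries of the comparison alone, 12 with the replicate block and 16 when the library whose absence gave the smallest difference was left out. *Map3k8* passed it against WT replicates 4 to 6 and with the block. Centring, quantile normalization, limma-trend and no filter changed no direction and no side of the threshold for these genes.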
